A study of Mus musculus with 2 samples.

Results

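Retinoic acid is a signalling molecule that cells make from vitamin A, and the transcripts of the enzymes that make and remove it and of the proteins that bind it were examined in the mouse embryonic heart. The set held 9 genes, chosen by name: the dehydrogenases Rdh10, Aldh1a1, Aldh1a2 and Aldh1a3, the reductase Dhrs3, the hydroxylases Cyp26a1 and Cyp26b1, and the binding proteins Crabp1 and Crabp2. They were taken from the gene tables by Ensembl identifier, and all 9 had a row among the 43346 Ensembl genes. Hearts came from healthy B6NCrl mouse embryos at embryonic day 12.5, and each library is labelled as a pool of both sexes. The 2 libraries form 1 group with no treatment and no second genotype, tissue or age, so there was no contrast to test and no p-value is given. Input was 10 ng per library of RNA above 200 nt, and spike-in RNAs were included. The labels call the libraries biological replicates of separate tissue samples, with the same donor number, and do not say whether separate pools of embryos were used.

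Retinol is first oxidised to retinaldehyde, mainly by Rdh10 in the embryo, and retinaldehyde is then oxidised irreversibly to retinoic acid by the Aldh1a enzymes. Dhrs3 turns retinaldehyde back into retinol, and Cyp26 enzymes hydroxylate retinoic acid for clearance, so levels are set by opposing steps. In the embryonic heart the epicardium, the outer mesothelial layer, is a known site of Aldh1a2 expression. Retinoic acid acts by binding RAR receptors paired with RXR receptors on DNA.

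The libraries held 34751234 and 31847875 estimated reads, of which 33480066 and 30665239 fell on mouse genes and 3549 and 3139 on the 9 genes. For a gene with 0 reads the upper limit is 3 reads, here 0.0896 and 0.0978 CPM of gene reads in replicates 1 and 2. Levels are in TPM, the transcript abundance unit that divides reads by length and so allows genes to be compared. The heart label was met by its markers: all 10 heart muscle genes checked were present, with a median of 3770 TPM. All 10 epicardial markers were present as well, with a median of 17.4 TPM and summed levels of 313.3 and 311.1 TPM in replicates 1 and 2. Hepatocyte markers differed between the libraries, with a summed level of 246 TPM in replicate 1 and 68.7 TPM in replicate 2. All values are from whole hearts, where fewer cells of a type and less RNA per cell cannot be told apart.

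Of the 9 genes 7 were detected, meaning 1 TPM or more in both libraries, as were 57.5% of 21461 nuclear protein-coding genes. None of the 9 was under 0.1 TPM in both libraries, against 26.8% of protein-coding genes. The 2 genes that were not detected by this rule, Aldh1a3 and Cyp26a1, lay between these limits in both libraries. The median of the 9 mean levels was 3.57 TPM, beside 3.64 TPM over all protein-coding genes and 18.9 TPM over the detected ones. In falling order of TPM the genes were Aldh1a2, Dhrs3, Crabp1, Crabp2, Rdh10, Cyp26b1, Aldh1a1, Aldh1a3 and Cyp26a1. The order was the same in replicate 1 and replicate 2.

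**Figure D1:**
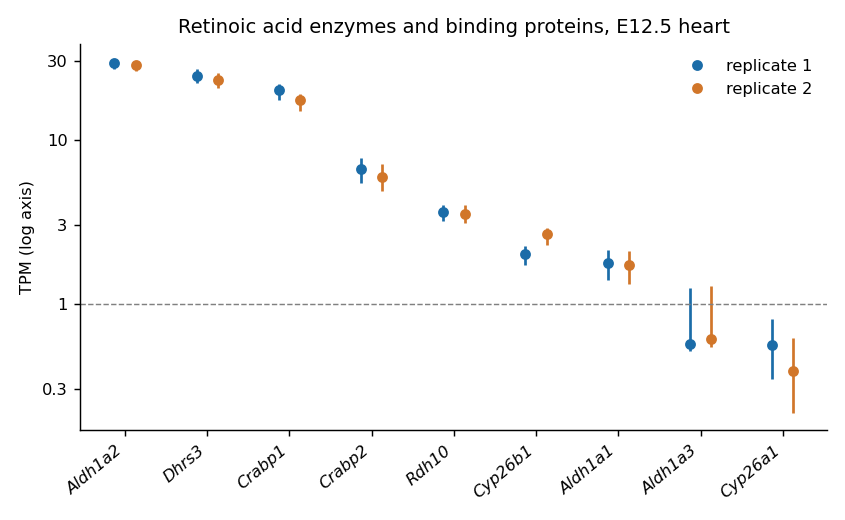
Levels of the 9 genes in each library, in TPM on a log axis. Points are the deposited values, vertical lines run from the deposited lower to the deposited upper bound, and the dashed line marks 1 TPM. Aldh1a2, Dhrs3 and Crabp1 lie between 17.38 and 29.13 TPM, and Aldh1a3 and Cyp26a1 lie under 1 TPM in both libraries.

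Rdh10, the enzyme of the first oxidation, had 3.60 TPM in replicate 1 (297 reads) and 3.54 TPM in replicate 2 (264 reads), or 3.57 ± 0.0424 TPM (mean ± SD, n = 2). The gene lies on mm10 chromosome 1 from 16105774 to 16133734 on the plus strand (ENSMUSG00000025921.7). The values were nearly alike, with deposited bounds of 3.17 to 4.01 and 3.11 to 3.98 TPM. About the middle of the protein-coding genes, 50.2%, stood at or above it.

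Aldh1a2, the retinaldehyde dehydrogenase that provides most retinoic acid in the early embryo, was the highest of the 9. It had 29.13 TPM in replicate 1 (1490 reads) and 28.37 TPM in replicate 2 (1312 reads), or 28.75 ± 0.537 TPM. Both libraries were high, and 21.7% of protein-coding genes were at or above this level. The gene (ENSMUSG00000013584.5) lies on chromosome 9 from 71215789 to 71296243 on the plus strand, and its 1 transcript has 14 exons. Aldh1a2 was 8.05 ± 0.0548 times as abundant as Rdh10, which supplies its substrate.

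The other 2 members of this enzyme family were low. Aldh1a1, the form best known from the dorsal retina and from adult tissues, had 1.78 and 1.73 TPM (82 and 72 reads), or 1.76 ± 0.0354 TPM. It lies on chromosome 19 from 20492715 to 20643465 on the plus strand (ENSMUSG00000053279.6). Aldh1a3, the form best known from the ventral retina and nasal region, had 0.57 and 0.61 TPM (28 and 30 reads), or 0.59 ± 0.0283 TPM. It lies on chromosome 7 from 66390890 to 66427517 on the minus strand (ENSMUSG00000015134.10). Its level depended on the estimate used: the deposited posterior means were 0.86 and 0.89 TPM, with bounds of 0.511 to 1.25 and 0.545 to 1.28 TPM. Aldh1a2 thus held 92.5 ± 0.109% of the TPM of the 3 genes, Aldh1a1 5.64 ± 0.0149% and Aldh1a3 1.9 ± 0.124%. Per library Aldh1a2 was 16.4 ± 0.0238 times as abundant as Aldh1a1 and 48.8 ± 3.25 times as abundant as Aldh1a3, and Aldh1a1 was 2.98 ± 0.203 times as abundant as Aldh1a3. As log2 ratios of TPM + 0.1 these were 3.96, 5.39 and 1.43, and with 1 added in place of 0.1 the ratios to Aldh1a3 were 4.23 and 0.79.

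Because shares within a family rest on reads being given to the right copy, the coding sequences were compared, and the stretch most alike in the closest pair is shown. Aldh1a1 has a near copy, Aldh1a7, a mouse gene 49.5 kb away on chromosome 19 with no coding gene between them. In the 90 coding bases below, which span 2 exons in each gene, Aldh1a1 and Aldh1a7 have 0 differences. Capitals mark bases that differ from Aldh1a1, 34 of them in Aldh1a2 and 32 in Aldh1a3. The sequences are from GENCODE M21 transcripts, written 5′ to 3′ on the coding strand, and begin at coding base 226 in Aldh1a1 and Aldh1a7, 277 in Aldh1a2 and 259 in Aldh1a3. On GRCm38 they lie at chr19:20617934-20619971, chr19:20719313-20722364, chr9:71252970-71255036 and chr7:66413028-66419189, intron included.
Aldh1a1: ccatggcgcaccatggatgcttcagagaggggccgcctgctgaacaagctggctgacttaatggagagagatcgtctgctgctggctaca
Aldh1a7: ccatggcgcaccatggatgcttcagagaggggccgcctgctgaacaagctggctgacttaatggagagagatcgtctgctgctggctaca
Aldh1a2: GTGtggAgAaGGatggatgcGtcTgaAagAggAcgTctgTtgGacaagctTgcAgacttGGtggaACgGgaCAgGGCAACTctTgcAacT
Aldh1a3: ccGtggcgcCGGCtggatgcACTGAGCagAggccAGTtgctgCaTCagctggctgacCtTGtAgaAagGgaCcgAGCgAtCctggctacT
Over the whole coding sequence Aldh1a1 was 91.6% identical to Aldh1a7, 68.2% to Aldh1a2 and 67.1% to Aldh1a3. Of the 1954 possible 100-base reads of the Aldh1a1 transcript, 1 was also found in Aldh1a7 (0.0512%). None of the 2165 such reads of Aldh1a2 matched another gene. The posterior SD of the Aldh1a1 read number was 0.03 reads in replicate 1 and 0 in replicate 2. Exact sequence identity therefore left almost no Aldh1a1 read shared; reads with sequencing errors were not examined. Aldh1a7, the near copy itself, had 0.34 TPM in replicate 1 (16 reads) and 1.38 TPM in replicate 2 (58 reads), unlike Aldh1a1, whose values differed little.

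Dhrs3, the reductase that returns retinaldehyde to retinol, stood second in the order. It had 24.46 TPM in replicate 1 (949 reads) and 22.95 TPM in replicate 2 (821 reads), or 23.7 ± 1.07 TPM. The gene (ENSMUSG00000066026.10) lies on chromosome 4 from 144892827 to 144928209 on the plus strand. Rdh10 and Dhrs3 catalyse opposite directions of the same step and are known to activate each other as proteins. The transcript of the reductase was 6.64 ± 0.22 times as abundant as that of the oxidase, in both libraries in the same direction. Aldh1a2 exceeded Dhrs3 by 1.21 ± 0.032 times, and the deposited bounds of these genes overlapped in replicate 1 and not in replicate 2.

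The Dhrs3 level was divided among several transcript models. Dhrs3-206, with 906 coding bases, led with 41.0% of the gene's TPM in replicate 1 and 44.7% in replicate 2 (42.9 ± 2.58%). Dhrs3-207, with 828 coding bases, followed at 28.3 ± 0.615%. Models annotated as coding took 77.7 ± 1.21% together. Dhrs3-201, annotated as a target of nonsense-mediated decay, the pathway that destroys transcripts with early stop codons, took 15.7 ± 1.61%, and the retained intron model Dhrs3-204 took 6.11 ± 2.02%. Read allocation among these models was uncertain, with a posterior SD of 50.8 and 44.9 reads for Dhrs3-206 against 531 and 490 reads assigned to it.

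**Figure D2:**
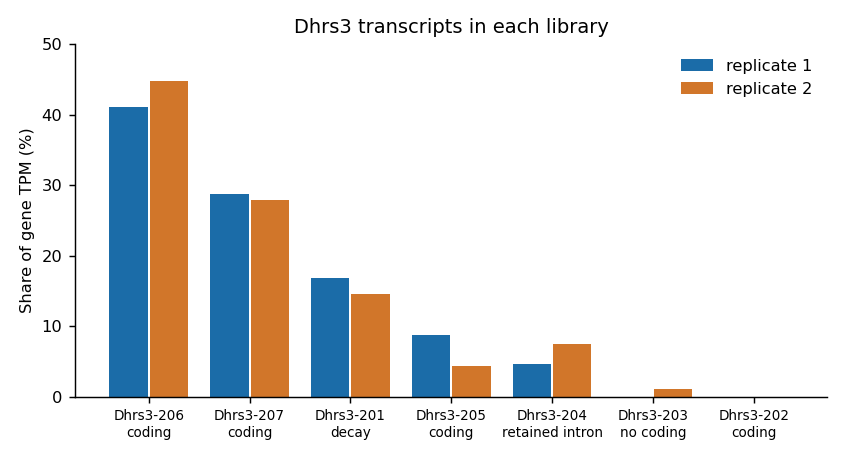
Share of the Dhrs3 TPM given to each of its 7 transcript models in replicate 1 and replicate 2, in percent, with the GENCODE M21 class under each name. Dhrs3-206 has the tallest bars, at 41.0 and 44.7%, and Dhrs3-202 is at 0 in both libraries.

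The other detected genes with 2 or more models gave a simpler picture. Crabp2-201 held 97.3 ± 0.891% of Crabp2, and Rdh10-201 held 100% of Rdh10. For Cyp26b1 all reads were assigned to Cyp26b1-202 and none to Cyp26b1-201, but the deposited posterior shares were 78.1 and 78.2% for the first, so the zero is not a measured absence. Both models hold 1536 coding bases. The leading transcript was the same in both libraries for 4 of these 4 genes (Dhrs3, Rdh10, Cyp26b1, Crabp2), as for 92.1% of the 9074 detected protein-coding genes with 2 or more transcripts. In Aldh1a3, which was below 1 TPM, the short model Aldh1a3-203 with 528 coding bases had 64.5 and 52.9% of the TPM, and the model Aldh1a3-201 with 1536 coding bases had the rest. The deposited posterior shares were 39.8 and 35.3% for the short model and 22.8 and 32.0% for the long one, with the remainder on 3 other models, so the division depended on the estimate used. The shares of TPM rest on 12.1 and 9.57 reads for the short model and 15.9 and 20.4 reads for the long one.

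Cyp26b1 and Cyp26a1 remove retinoic acid. Cyp26b1 had 2.02 TPM in replicate 1 (220 reads) and 2.65 TPM in replicate 2 (260 reads), or 2.34 ± 0.445 TPM. It lies on chromosome 6 from 84571414 to 84593908 on the minus strand (ENSMUSG00000063415.8). Cyp26b1 was higher in replicate 2, and its deposited bounds, 1.73 to 2.25 and 2.27 to 2.90 TPM, did not overlap between the libraries. The share of all genes whose deposited bounds did not overlap was not counted. Cyp26a1 had 0.56 and 0.39 TPM (22 and 14 reads), or 0.475 ± 0.12 TPM, with Aldh1a3 one of the 2 genes under 1 TPM. It lies on chromosome 19 from 37697798 to 37701536 on the plus strand (ENSMUSG00000024987.5). Cyp26c1, the family's other gene, 4.4 kb from Cyp26a1 and named here because it completes the family, had 1 read in replicate 1 and 0 in replicate 2. Cyp26b1 held 77.4 and 87.2% of the TPM of the 3 genes, whose sum was 2.61 and 3.04 TPM. Cyp26b1 exceeded Cyp26a1 by 3.61 times in replicate 1 and 6.79 times in replicate 2, so the direction was shared and the size was not. On the log2 scale of TPM + 0.1 that ratio was 2.09 ± 0.57, and 1.17 with 1 added. Aldh1a2, which makes the substrate of these enzymes, exceeded Cyp26b1 by 14.4 and 10.7 times.

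Cyp26a1 is known as a gene that retinoic acid induces, through receptor pairs bound to repeated hexamers in DNA. The sequence before its start is shown for its match in a search for some forms of such repeats. Of the 6 genes with a window in the RefSeq promoter table (9 windows), Cyp26a1 alone held a repeat of the forms searched. The search took direct repeats of the hexamers AGGTCA or AGTTCA, each copy being either, spaced by 1, 2 or 5 bases, on both strands, in windows from 250 bases before to 50 after each start. Printed is the plus strand of GRCm38.p6 at chr19:37697558-37697797, 240 bases that end just before the annotated gene. Capitals mark the 17 bases of the repeat, spaced by 5 and read on the minus strand, whose nearest annotated RefSeq start is 32 bases from its first base.
Cyp26a1: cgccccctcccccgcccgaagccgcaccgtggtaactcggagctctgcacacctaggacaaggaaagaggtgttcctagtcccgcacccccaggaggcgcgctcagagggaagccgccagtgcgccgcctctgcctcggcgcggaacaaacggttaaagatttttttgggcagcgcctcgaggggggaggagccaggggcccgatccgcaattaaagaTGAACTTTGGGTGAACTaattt
Repeats with any of the 3 spacings were in 53 of 32851 windows of the table (0.161%), and those spaced by 5 in 13 (0.0396%). Of 12 genes known to respond to retinoic acid that had a window, 1 held such a repeat, and that was Cyp26a1 itself. The search thus found none in the other known responsive genes, and a window without a match may hold a repeat of another form. The match is one of letters, and no binding was measured. No window was listed for Aldh1a3, Rdh10 and Crabp2.

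Crabp1 and Crabp2 are small cytoplasmic proteins that bind retinoic acid. Crabp2 is known to carry it to nuclear receptors, and Crabp1 is linked to its retention and breakdown in the cytoplasm. Crabp1 had 20.05 TPM in replicate 1 (333 reads) and 17.38 TPM in replicate 2 (261 reads), or 18.7 ± 1.89 TPM. It lies on chromosome 9 from 54764748 to 54773110 on the plus strand (ENSMUSG00000032291.8). Crabp2 had 6.58 and 5.95 TPM (128 and 105 reads), or 6.27 ± 0.445 TPM, and lies on chromosome 3 from 87948666 to 87953376 on the plus strand (ENSMUSG00000004885.5). Both were lower in replicate 2, and the deposited bounds overlapped between the libraries, at 17.5 to 21.7 and 14.9 to 19.0 TPM for Crabp1. Crabp1 was 2.98 ± 0.0892 times as abundant as Crabp2 and held 74.9 ± 0.562% of their joint TPM. Crabp1 is also known in neural crest and neural tissue, and 5 of 8 neural and neural crest markers were detected. The neural crest regulator Sox10 had 0.23 and 0.21 TPM, and the summed marker level was 22.9 and 22.4 TPM. Their part in the Crabp1 level was not tested.

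The binding protein genes are 70.8% identical over their coding sequences, and the most alike stretch of 90 coding bases is shown to set the pair beside the ratio of their levels. It covers coding bases 150 to 239 of each gene, in exon 2, at chr9:54765562-54765651 and chr3:87952194-87952283 (GRCm38, GENCODE M21, both plus strand). Capitals mark the 16 bases of Crabp2 that differ from Crabp1.
Crabp1: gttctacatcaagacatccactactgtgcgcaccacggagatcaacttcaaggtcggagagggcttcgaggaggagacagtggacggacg
Crabp2: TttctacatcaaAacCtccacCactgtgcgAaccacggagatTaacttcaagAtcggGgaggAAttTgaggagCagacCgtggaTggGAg
The longest identical run between these genes over the aligned coding sequence was 11 bases, far below a read length of 100. No 100-base read of either transcript matched another gene.

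Neighbours in the order of levels were then compared with their spread. The library values of adjacent genes did not overlap for any of the 8 adjacent pairs. The step from Crabp1 to Crabp2 and that from Aldh1a1 to Aldh1a3 were the largest, at 2.98 times each. Rdh10 exceeded Cyp26b1 by 1.78 times in replicate 1 and 1.34 times in replicate 2, and Cyp26b1 exceeded Aldh1a1 by 1.13 and 1.53 times. The deposited bounds of Cyp26b1 and Aldh1a1 overlapped in replicate 1 and not in replicate 2. Aldh1a3 was above Cyp26a1 in both libraries, by 1.02 and 1.56 times, but their mean levels differed by less than the SD of Cyp26a1 and their deposited bounds overlapped in both libraries. By posterior mean the gap was wider, with 0.86 and 0.89 TPM for Aldh1a3 and 0.57 and 0.41 TPM for Cyp26a1. All 8 pairs chosen for comparison, such as Crabp1 with Crabp2, had the same gene higher by 1.5 times or more in both libraries. The share of other gene pairs that would pass this rule was not taken, so the count describes these pairs only.

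The libraries differed little for these genes. In TPM 7 of the 9 were lower in replicate 2, and Cyp26b1 and Aldh1a3 were higher. The share of all genes lower in replicate 2 was not counted. The median log2 ratio, replicate 2 over replicate 1, was -0.0384 for the 8 genes with a mean of 20 reads or more. For all protein-coding genes with that many reads it was 0.0187. Among the 8 genes with a mean of 20 reads or more, none was 1.5-fold or more higher in replicate 1, as were 2.04% of 13529 protein-coding genes with that many reads, and none was so in replicate 2, against 1.54%. Cyp26a1, with a mean of 18 reads, fell below that minimum. A 95% exact binomial interval was also taken for the ratio of each gene's share of reads, covering counting error only. It lay above 1 for Cyp26b1 alone, at 1.29 (1.07 to 1.55), and above 1 for 12.4% of the protein-coding genes. It lay below 1 for none of the 8, against 11.1% of those genes. The median size of the log2 difference was 0.0876 for the 8 genes and 0.0829 for all.

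**Figure D3:**
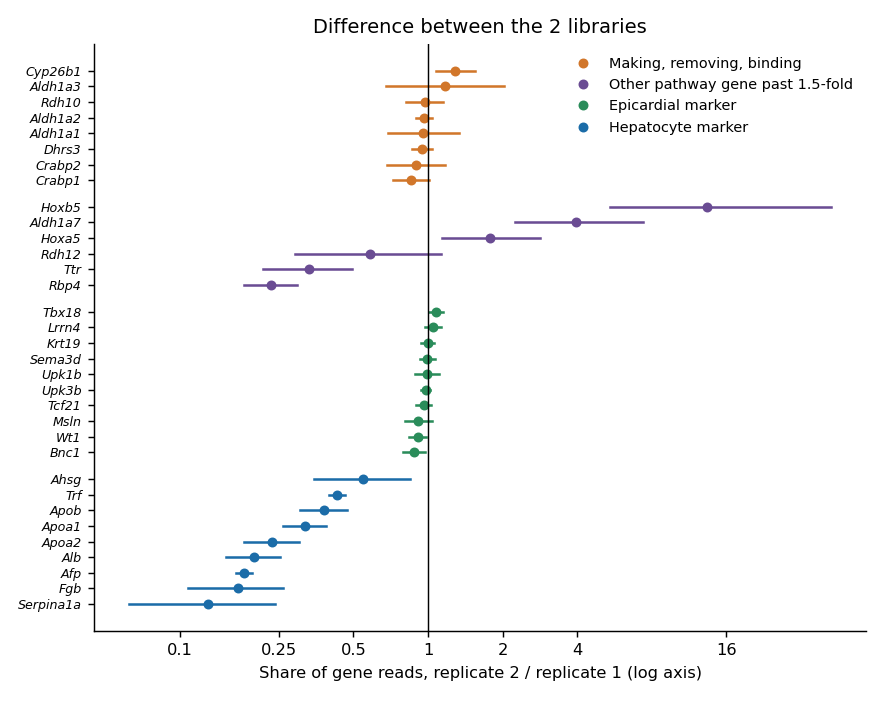
Ratio of each gene's share of gene reads, replicate 2 over replicate 1, on a log axis, with 95% exact binomial intervals for counting error. The 8 genes with a mean of 20 reads or more are in orange, pathway genes past 1.5-fold in purple, epicardial markers in green and hepatocyte markers in blue. Cyp26b1 is the orange gene whose interval, 1.07 to 1.55, lies off 1, and the hepatocyte markers all lie below 1.

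The steps before synthesis depend on supply of vitamin A from the blood. Of 11 genes of vitamin A uptake and storage 5 were detected. Dgat1, which can esterify retinol, had 36.1 and 37.0 TPM. Rbp4, the carrier of retinol in blood, had 19.23 TPM in replicate 1 (380 reads) and 4.52 TPM in replicate 2 (81 reads). Ttr, the partner of Rbp4, had 4.12 and 1.38 TPM. These 2 of the 6 genes with enough reads were higher in replicate 1, by 4.18 and 2.85 times by TPM + 0.1. All 10 hepatocyte markers, Ttr among them, were higher in replicate 1 as well, with Afp at 99.3 and 18.2 TPM and Alb at 9.23 and 1.85 TPM. The part of hepatocyte RNA in the Rbp4 and Ttr levels was not tested.

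Of 16 other retinol and retinal enzymes 7 were detected, and Rdh1, Adh4 and Adh7 had 0 reads in both libraries. The highest were Adh5, the formaldehyde-clearing alcohol dehydrogenase, at 124.1 ± 0.417 TPM, and the short-chain dehydrogenases Rdh14 at 42.8 ± 0.0919 TPM, Dhrs4 at 39.2 ± 2.14 TPM and Rdh13 at 22.0 ± 0.0636 TPM. Each stood above Rdh10 in both libraries. Of 9 genes with enough reads, Rdh12 was 1.56 times higher in replicate 1 by TPM + 0.1, with 0.71 and 0.42 TPM. By the same measure Aldh1a7 was 3.36 times higher in replicate 2. Lung and foregut markers were also higher in replicate 2 in sum, at 5.13 and 8.47 TPM, with 2 of 8 detected and Sftpc at 0 reads in replicate 1 and 14 in replicate 2. Among them the lung and thyroid regulator Nkx2-1 had 0.10 and 1.07 TPM and Cldn6 1.56 and 2.43 TPM, while Cdh1 was higher in replicate 1, at 1.14 and 0.70 TPM. Their part in the Aldh1a7 difference was not tested.

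The receptor genes were all detected (6 of 6), and their median was 14.8 TPM. Rara had 27.64 and 28.51 TPM, Rarb 19.50 and 20.05 TPM, and Rarg 9.77 TPM in both libraries. Among the partners Rxrb had 27.54 and 30.35 TPM, Rxra 6.39 and 6.98 TPM, and Rxrg 1.41 and 1.36 TPM. Rara held 48.7 ± 0.219% of RAR transcripts and Rxrb 78.2 ± 0.364% of RXR transcripts. The values of Rara and Rxrb overlapped between libraries, and the other neighbours in the receptor order did not. Against the binding proteins, Rara was higher than Crabp1 and Crabp2 in both libraries.

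Of 8 corepressors, coactivators and genes of the other binding route, through Fabp5 and Ppard, 7 were detected. Fabp5, a fatty acid binding protein reported to carry retinoic acid to Ppard, was the highest at 335.6 ± 2.11 TPM, above both Crabp genes. The corepressor Ncor1 had 111 ± 5.86 TPM, Nrip1 22.7 ± 0.983 TPM and the coactivator Ncoa2 18.4 ± 2.38 TPM. None of these 8 and none of the 6 receptors differed by 1.5 times between the libraries.

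Of 20 genes known to respond to retinoic acid, a list that holds Dhrs3, Cyp26a1 and Crabp2, 10 were detected, and Cdx1 and Stra8 had 0 reads in both libraries. Among the most abundant were the transglutaminase Tgm2 at 186.7 ± 2.07 TPM and the homeobox genes Meis1 at 64.5 ± 3.01 TPM and Meis2 at 41.9 ± 1.57 TPM. Dhrs3 was thus among the higher genes of the list and Cyp26a1 among the lower. Of 15 with enough reads, Hoxb5 was 7.5 times higher in replicate 2 by TPM + 0.1, with 0.12 and 1.55 TPM. By the same measure Hoxa5 was 1.71 times higher there, with 0.79 and 1.42 TPM. Of the lung and foregut markers Nkx2-1 was higher in replicate 2 as well. Cdh1, at 1.14 and 0.70 TPM, and Foxa2, at 0.45 and 0.36 TPM, were higher in replicate 1. The part of lung or foregut RNA in Hoxb5 and Hoxa5 was not tested.

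**Figure D4:**
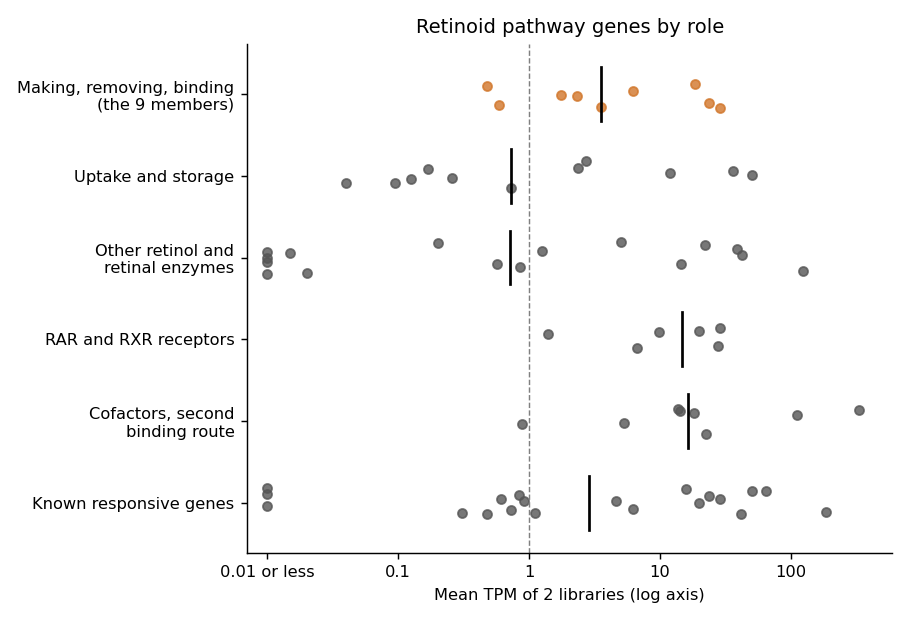
Mean TPM of the 2 libraries for each gene, on a log axis, by role in the pathway. Each point is a gene, short vertical bars are medians, points at the left edge are at 0.01 TPM or less, and the dashed line marks 1 TPM. The 9 genes have a median of 3.57 TPM, the receptors 14.8 TPM, and the uptake and storage genes 0.73 TPM.

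The epicardial markers, which mark the layer known to express Aldh1a2, are described beside it. Wt1, a defining transcription factor of the epicardium, had 25.1 and 23.6 TPM, beside 29.13 and 28.37 TPM for Aldh1a2. The other epicardial markers ranged from Bnc1, with a mean of 7.44 TPM, to Upk3b, with 73.7 TPM. None of the 10 differed by 1.5 times. Endothelial and cushion markers were present too, with 8 of 8 detected in each list. The endothelial marker Nfatc1 had 27.35 and 29.07 TPM, and Pdgfra of the cushion list had 30.4 and 30.2 TPM. Both were nearer in level to Aldh1a2 than Wt1 was. The lists are not exclusive, as Tcf21 stands in both the epicardial and the cushion list. A cell source of Aldh1a2 was not tested from these levels. Which of these cells carried the transcripts of the 9 genes was not measured in whole hearts.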

How the data were processed

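Per the labels, extraction used Ambion mirVana, and a SMARTer low-input manual is cited. Not given in the sources used here: ribosomal RNA removal, strand, aligner, quantifier and the level of the deposited bounds. Per the submitters' notes, reads were aligned to mm10 with GENCODE M4. The deposited expected count estimates reads per gene and need not be whole, and the deposited TPM scales them by effective length over all features, spike-ins included. The deposited lower and upper bounds and posterior SD were used as the authors' signal of uncertainty. The deposited percent gives each transcript's share of its gene. Effective length was 99 bases under length in 100% of 129984 transcripts, as reads of 100 bases give.

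GENCODE M21, also on GRCm38, named 42462 of 43346 gene identifiers. No exon of the 9 genes overlapped an exon of another M21 gene. The genes and lists were chosen with earlier results of these data known. Each list names up to 4 genes of highest mean TPM, every receptor, and any gene with a mean of 20 reads that differed 1.5-fold between libraries; 1 gene so chosen is not reported here. Cyp26c1, Sox10, Sftpc, Foxa2, Bnc1, Nfatc1, Pdgfra and genes said to have 0 reads were named after their values were seen. The count of read ratio intervals off 1, the sequence comparisons and the promoter search were added then too. Differences between libraries used log2(TPM + 0.1), which understates those of low genes. Only the difference between libraries was tried on simulated counts, with counting noise alone and with counts per library total in place of TPM. The other steps were not simulated.

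Alternatives covered posterior means, thresholds, pseudocounts, length, globins, spike-ins, each library alone, edgeR 4.0.16 TMM and DESeq2 1.42.0 size factors on rounded counts (R 4.3.3). Alignments used mafft 7.526, plots matplotlib 3.10.9 and all else Python 3.11.15 with scipy 1.17.1, pandas 2.3.3 and numpy 2.4.6. Promoters are RefSeq windows on GRCm38.p6, with chromosome 18 left out.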

Additional observations from a re-analysis of the deposited data

How the results depend on the processing

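The number of detected genes was 7 at 1 TPM, 8 at 0.5 TPM and 6 at 2 TPM, and 8 genes had 20 reads or more in both libraries. It was 7 with posterior means, without spike-ins, without globin genes and with either library alone. All 8 pairs kept 1 gene higher under each of the 6 alternatives run. No gene that met the minimum of reads passed the difference between libraries under any of the 8 run. Cyp26a1, with a mean of 18 reads, entered only the alternative without a minimum. Aldh1a1 and Aldh1a3 also dropped out at a minimum mean of 100 reads. The leading transcript was shared for 4 of 4 genes, and for 1 of 1, Dhrs3, with genes at 10 TPM or more only, where fewer genes are tested. The ratio of Aldh1a1 to Aldh1a3 fell from 1.43 to 0.90 on the log2 scale with posterior means and to 0.79 with a pseudocount of 1, and that of Aldh1a2 to Aldh1a3 from 5.39 to 4.85 and 4.23. Mean levels moved by 0.975 to 1.48 times with posterior means, Aldh1a3 most, and by 0.821 to 1.18 times with 1 library alone. No gene's difference between libraries changed sign under another scaling; that of Cyp26b1 ran from 0.27 to 0.38 on the log2 scale. Depth limited Cyp26a1 and Aldh1a3, whose levels rest on 14 to 30 reads. No paired analysis was possible because there is 1 group.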
